A study of Rattus norvegicus with 14 samples.

Results

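The enzymes described here modify and join collagen and elastin chains, and they were chosen by name: the lysyl oxidases Lox, Loxl1, Loxl2, Loxl3 and Loxl4, the lysyl hydroxylases Plod1, Plod2 and Plod3, and the prolyl 4-hydroxylase alpha subunits P4ha1 and P4ha2. All 10 were found among the 17019 genes of a table of polyadenylated RNA from rat aorta, and all 10 passed the filter on low values in every comparison. The 14 libraries came from 1 male Dark Agouti rat each. The uremic group (rats 9, 17, 20, 27 and 28) had 14 weeks of uremia after 5/6 nephrectomy, the surgical removal of most kidney tissue, and received alfacalcidol, a prodrug of active vitamin D, in doses of 30 ng given 3 times weekly over the final 6 weeks. The group called control with vitamin D (rats 36, 37, 38 and 39) consisted of normal rats given vitamin D, whose dose and duration are not given in the sources used here. The control group (rats 41, 42, 43, 44 and 46) was normal and untreated, and was killed at 14 weeks. A high-phosphate diet is named as a condition for calcification without saying which rats ate it, so diet, uremia and its length cannot be told apart in the comparisons with uremic rats. No group was uremic without vitamin D.

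Collagen chains are modified in the endoplasmic reticulum before they fold. Prolyl 4-hydroxylase, an assembly of alpha subunits with protein disulfide isomerase (P4hb), makes the hydroxyproline that keeps the triple helix stable, and the lysyl hydroxylases turn lysine into hydroxylysine. Both kinds of enzyme use oxygen, iron, 2-oxoglutarate and ascorbate. Outside the cell the copper-dependent lysyl oxidases turn lysine and hydroxylysine side chains into aldehydes, which then form the cross-links of collagen fibrils and of elastin. In the aorta these cross-links carry the load of each pulse, and mice without Lox die around birth with aortic aneurysms. Plod2 acts on the ends of the collagen chain, the telopeptides, and thereby sets which kind of cross-link forms.

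The promoters of the 4 enzymes that passed the test in at least 1 comparison are shown because hypoxia-inducible factors are known, in human and mouse cells, to raise PLOD2 and P4HA1. The sequences are those of RefSeq for the rat build GRCr8, each running from 250 bases before to 50 bases after the gene's start, 5′ to 3′ on the strand of the gene. They lie at chr8:101964068-101964367 on the plus strand for Plod2, chr4:117098108-117098407 on the plus strand for Loxl3, chr1:251365528-251365827 on the minus strand for Loxl4, and chr20:27844796-27845095 on the plus strand for P4ha1. This build differs from the rn5 build of the expression table, and no coordinate was carried from one to the other. Capitals mark the core of the hypoxia response element, ACGTG or GCGTG, read on either strand.
Plod2: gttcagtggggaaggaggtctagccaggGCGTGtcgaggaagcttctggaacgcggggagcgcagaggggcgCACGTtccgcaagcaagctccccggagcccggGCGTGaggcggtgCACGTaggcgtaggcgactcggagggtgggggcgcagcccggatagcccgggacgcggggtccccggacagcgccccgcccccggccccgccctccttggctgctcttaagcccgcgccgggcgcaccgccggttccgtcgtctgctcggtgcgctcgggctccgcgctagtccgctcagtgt
Loxl3: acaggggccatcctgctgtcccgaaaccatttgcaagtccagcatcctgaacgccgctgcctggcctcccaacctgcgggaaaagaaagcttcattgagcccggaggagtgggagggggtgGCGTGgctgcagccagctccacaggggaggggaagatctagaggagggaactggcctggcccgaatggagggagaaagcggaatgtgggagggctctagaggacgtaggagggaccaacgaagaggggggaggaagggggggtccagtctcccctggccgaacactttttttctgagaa
Loxl4: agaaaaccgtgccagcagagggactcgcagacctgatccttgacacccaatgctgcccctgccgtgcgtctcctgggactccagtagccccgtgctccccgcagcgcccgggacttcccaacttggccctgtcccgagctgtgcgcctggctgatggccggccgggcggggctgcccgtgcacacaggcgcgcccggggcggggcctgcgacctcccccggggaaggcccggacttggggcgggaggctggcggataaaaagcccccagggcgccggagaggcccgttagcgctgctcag
P4ha1: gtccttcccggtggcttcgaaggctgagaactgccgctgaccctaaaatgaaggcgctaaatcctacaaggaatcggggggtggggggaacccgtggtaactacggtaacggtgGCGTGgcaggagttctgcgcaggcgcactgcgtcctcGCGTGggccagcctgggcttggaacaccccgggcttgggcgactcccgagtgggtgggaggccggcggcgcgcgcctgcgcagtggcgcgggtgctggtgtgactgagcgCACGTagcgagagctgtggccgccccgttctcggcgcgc
The core occurred 4 times in the Plod2 window, 3 times in that of P4ha1, once in that of Loxl3 and nowhere in that of Loxl4. Among 33469 rat promoters of this length, 41.6% held at least 1 core, 8.15% at least 3 and 3.46% at least 4. Of the 10 enzymes, 8 had a promoter in the RefSeq table, and 6 of these 8 held a core: the remaining counts were 5 for P4ha2, 2 for Plod3 and 1 for Plod1, with no core for Loxl1. The windows of the 8 enzymes were rich in G and C, at 61.0% to 73.7%, against a median of 51.7% over all promoters. The AP-1 motif TGANTCA was in none of the 8, against 7.33% of all promoters, and the GC box GGGCGG was in 6 of 8, against 33.1%, each read on both strands and counted separately, so that matches to different motifs may overlap. A match describes letters in the window, and binding was not measured.

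Levels are FPKM, the number of fragments scaled by transcript length and library size, so that genes may be compared with each other. Whole reads recovered from the FPKM steps summed to between 1383335 in rat 37 and 4686783 in rat 27 per library. These sums cover only the genes that gave whole reads and are not the full depth of a library. Smooth muscle markers, which define the aortic media, were detected in all groups, and their summed level ranged from 9867 to 20864 FPKM in uremic aortas, 16308 to 29012 FPKM in control aortas with vitamin D and 22214 to 31085 FPKM in control aortas. In uremic against control aortas 5 of the 8 smooth muscle markers fell and none rose. All 8 macrophage markers rose, with summed levels of 488 to 669 FPKM in uremic aortas, 67.4 to 140 FPKM in control aortas with vitamin D and 57.2 to 155 FPKM in control aortas. Of the osteoblast and chondrocyte markers, 4 of 5 tested rose and 1 fell, with summed levels of 285 to 576 FPKM in uremic aortas, 49.3 to 86.8 FPKM in control aortas with vitamin D and 53.4 to 71.5 FPKM in control aortas. Of 5 fibroblast markers 1 rose and 2 fell. Among markers of tissue around the vessel, 1 of 6 white fat markers rose (Cfd) and 1 fell (Lep), 1 of 4 brown fat markers fell (Ucp1), 2 of 3 skeletal muscle markers fell (Acta1 and Ckm) and 1 of 3 cardiac muscle markers rose (Tnni3). Cfd was the 1 gene of all these marker lists that passed in control rats with vitamin D against control rats, where it was higher. In that comparison white fat markers had a median log2 difference of 0.95, with 5 of 6 at an unadjusted p under 0.05. Brown fat markers had a median of 0.91, with 2 of 4 tested under that value. Of 7 endothelial markers limma called none in uremic against control aortas, although 3 had an unadjusted p under 0.05 and voom on recovered reads called 1. Of 4 red blood cell markers none passed there, but their median log2 difference was 1.94, with 1 at an unadjusted p under 0.05. Their summed levels were 1217 to 14997 FPKM in uremic aortas, 345 to 1597 FPKM with vitamin D alone and 172 to 8656 FPKM in control aortas. Mgp, a calcification inhibitor, took 13.3% to 19.5% of the summed FPKM of uremic libraries, 2.42% to 4.00% of those with vitamin D alone and 1.95% to 3.01% of control libraries. The part of these shifts in the results below was not tested, and in whole aortas fewer cells of a type and less RNA per cell cannot be told apart.

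Plod2 was the most abundant of the 10 enzymes in all 14 libraries. Its mean was 282 FPKM in uremic aortas, 172 FPKM in control aortas with vitamin D and 164 FPKM in control aortas, and its range did not overlap that of the next enzyme in any group. In control aortas Loxl1, at 86.9 ± 12.3 FPKM, and P4ha1, at 86.4 ± 14.7 FPKM (SD, n = 5 each), came next and overlapped. Lox (34.2), P4ha2 (32.2) and Plod1 (29.1) followed with overlapping ranges, then Plod3 (16.8), Loxl3 (12.9) and Loxl2 (10.5), and Loxl4 was last at 2.32 FPKM. The order was similar in control aortas with vitamin D, except for 2 pairs with overlapping ranges. P4ha1 stood above Loxl1 in each of the 4 libraries, while Loxl1 was above P4ha1 in 2 of the 5 control libraries. Loxl2 and Loxl3 exchanged places 8 and 9. In uremic aortas Loxl3, in place 6, was level with Plod1, whereas it held place 9 with vitamin D alone and place 8 in control aortas. Within groups, 1 library could be low throughout: rat 27 had the lowest uremic value in 8 of the 10 enzymes, and rat 46 the lowest control value in 6. Rat 27 was also the library with the most recovered reads, and its label lists 2 index sequences.

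**Figure D1:**
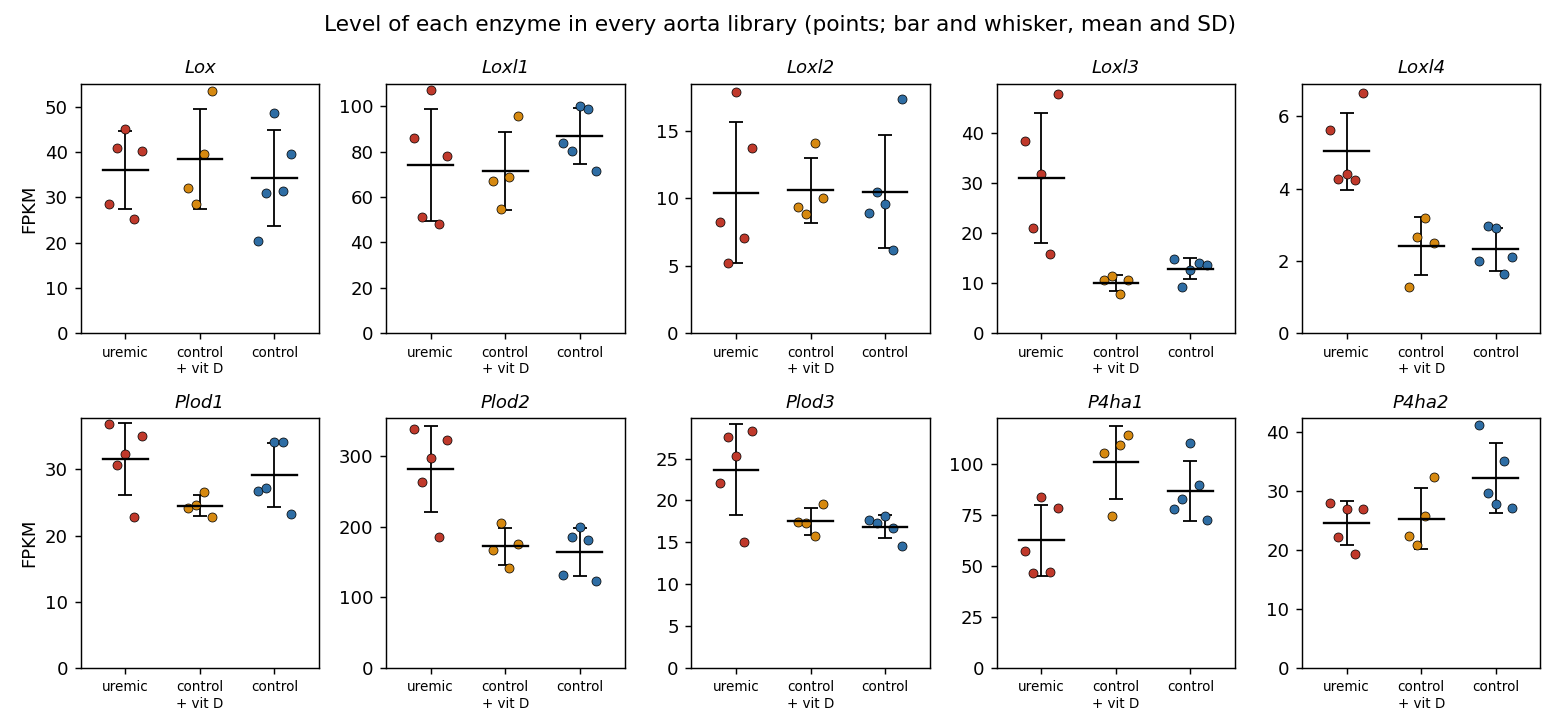
FPKM of each of the 10 enzymes in every aorta library, with uremic rats (n = 5), control rats with vitamin D (n = 4) and control rats (n = 5) side by side. Points are rats, and bar and whisker are mean and SD. All 5 uremic points of Loxl3 and Loxl4 lie above every other point, whereas those of Lox, Loxl1 and Loxl2 overlap the other groups.

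In uremic against control aortas 3 of the 10 enzymes rose, namely Loxl3, Loxl4 and Plod2, and none fell. Over all 9957 genes tested with limma at an adjusted p under 0.05, 21.9% were called, 11.4% as higher and 10.5% as lower. Of all called genes 52.0% were higher, against 34.5% with library totals made equal and 67.1% with totals made equal after Mgp was left out. The median log2 difference of the 10 enzymes was 0.10, against 0.005 over all genes. The groups did not overlap for 2 of the 10, Loxl3 and Loxl4, both higher in uremic aortas, while 8.38% of all genes were separated in that direction and 7.32% in the other. At an unadjusted p under 0.05 the count was 6, since Plod3, P4ha1 and P4ha2 came in as well. Of all 9957 genes 3506 were under that value in limma.

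Loxl3, a lysyl oxidase with scavenger receptor domains that mice need for a normal palate and spine, showed the largest difference of the 10. It had 38.4, 20.9, 31.8, 15.7 and 47.8 FPKM in uremic aortas, 10.6, 11.4, 7.74 and 10.6 FPKM in control aortas with vitamin D, and 14.8, 9.27, 12.7, 14.0 and 13.6 FPKM in control aortas. The lowest uremic rat, rat 27, was still above the highest control rat, and the uremic rats ranged more widely than those of the other groups. The mean was 30.9 ± 13.0 FPKM in uremic aortas (SD, n = 5) and 12.9 ± 2.15 FPKM in control aortas (SD, n = 5), a 2.40-fold difference with a log2 value of 1.12 (SE 0.25, limma adjusted p = 0.00763). The deposited locus of Loxl3 on rn5, chromosome 4 from 178552499 to 178571933, is shared by the row of Htra2, a mitochondrial protease, so reads of overlapping transcripts may be divided between the rows. Htra2 rose too, at 20.2 ± 5.21 FPKM in uremic aortas and 11.03 ± 2.17 FPKM in control aortas (SD, n = 5 each; log2 difference 0.80, SE 0.18, limma adjusted p = 0.00620).

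Loxl4 was the least abundant of the 10 enzymes, and its rise was of similar size. It had 5.62, 4.27, 4.40, 4.24 and 6.64 FPKM in uremic aortas, 1.29, 2.67, 3.19 and 2.51 FPKM in control aortas with vitamin D, and 1.99, 2.98, 2.91, 1.63 and 2.09 FPKM in control aortas. Every uremic rat was above every other rat, the nearest being rat 38 with vitamin D at 3.19 FPKM. Loxl4 lies on chromosome 1 of rn5 from 269286674 to 269305014 and shares its locus with no other row. Against control the fold was 2.17 and the log2 difference 0.86 (SE 0.17, limma adjusted p = 0.00326). A library held 13 to 118 recovered reads of Loxl4, the fewest of the enzymes, compared with 67 to 507 of Loxl3.

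Lox, the founding enzyme of the family, did not pass the test. It had 28.6, 40.8, 45.0, 25.2 and 40.2 FPKM in uremic aortas, 32.0, 28.6, 39.6 and 53.5 FPKM in control aortas with vitamin D, and 20.3, 31.1, 48.7, 31.4 and 39.6 FPKM in control aortas. The ranges overlapped throughout, and the 95% interval of the log2 difference between uremic and control aortas ran from -0.38 to 0.57. The deposited locus of Lox, chromosome 18 from 46716560 to 46821060 on rn5, also carries the row of Zfp474, which was too low to be tested.

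Loxl1, which is needed for elastic fibre renewal in mice, averaged 74.0 ± 24.8 FPKM in uremic aortas, 71.5 ± 17.4 FPKM in control aortas with vitamin D and 86.9 ± 12.3 FPKM in control aortas (SD, n = 5, 4 and 5). Between uremic and control aortas the log2 difference was -0.28 with a 95% interval of -0.72 to 0.16 (limma adjusted p = 0.352). Loxl2, which cross-links collagen IV of basement membranes, averaged 10.4 ± 5.23 FPKM in uremic aortas, 10.6 ± 2.41 FPKM in control aortas with vitamin D and 10.5 ± 4.18 FPKM in control aortas (SD, n = 5, 4 and 5), with a log2 difference between uremic and control aortas of -0.06 and an interval of -0.72 to 0.60. Both intervals hold differences of either sign.

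The lysyl oxidase transcripts summed to 156 ± 44.2 FPKM in uremic aortas, 133 ± 28.5 FPKM in control aortas with vitamin D and 147 ± 17.5 FPKM in control aortas (SD, n = 5, 4 and 5). Loxl3 supplied 19.4 ± 4.66% of the sum in uremic aortas, 7.87 ± 2.32% with vitamin D alone and 8.85 ± 1.81% in control aortas. Loxl1 supplied 47.0 ± 5.00% in uremic aortas, 53.6 ± 2.38% with vitamin D alone and 59.3 ± 6.26% in control aortas. The uremic share of Loxl3, at least 15.4%, lay above the highest share outside that group, 11.4% in control rat 41. These shares describe the levels already given and were not tested.

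**Figure D2:**
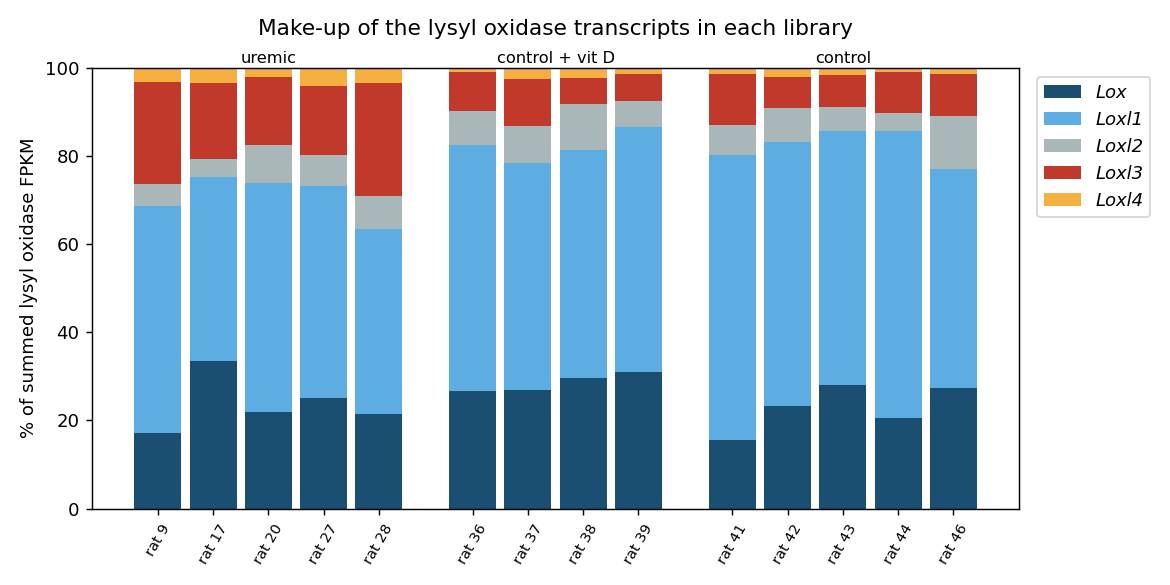
Share of each lysyl oxidase gene in the summed FPKM of the 5 genes, 1 stacked bar per rat, on an axis from 0 to 100%. The Loxl3 segment is 15.4% to 25.6% in the uremic bars, 5.80% to 10.7% in the bars with vitamin D and 6.92% to 11.4% in the control bars.

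Among the lysyl hydroxylases, Plod2 rose. Its levels were 339, 264, 297, 186 and 323 FPKM in uremic aortas, 167, 206, 142 and 175 FPKM in control aortas with vitamin D, and 132, 185, 200, 181 and 123 FPKM in control aortas. Rat 27 alone lay within the range of the other groups, and the other 4 uremic rats were above all of them. The mean was 282 ± 60.8 FPKM in uremic aortas, against 164 ± 34.6 FPKM in control aortas (SD, n = 5 each), 1.72-fold, with a log2 difference of 0.77 (SE 0.19, limma adjusted p = 0.0104). Plod2 lies on chromosome 8 of rn5 from 99462924 to 99545577 and shares its locus with no other row. Its FPKM steps gave no whole reads, so the test on recovered reads could not be run for it.

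Plod3, which is also a collagen glucosyltransferase, had 22.1, 27.6, 25.3, 15.0 and 28.3 FPKM in uremic aortas, 17.5, 17.3, 15.7 and 19.6 FPKM in control aortas with vitamin D, and 17.6, 17.3, 18.1, 16.7 and 14.5 FPKM in control aortas. Uremic rats other than rat 27 were above all others. With all rats the log2 difference was 0.44 (SE 0.16, limma adjusted p = 0.0643), and without rat 27 it was 0.59 (limma adjusted p = 0.00337). Under the main settings the call of Plod3 thus turned on rat 27. With all rats Plod3 passed as higher with 1 fit for all groups, array weights, voom on recovered reads, or equal totals with Mgp left out. Its locus on chromosome 12 of rn5, from 24728204 to 24744701, is shared with the rows of Znhit1 and Mir702. Plod1, the hydroxylase of lysines in the triple helix, averaged 31.5 ± 5.46 FPKM in uremic aortas, 24.5 ± 1.53 FPKM in control aortas with vitamin D and 29.1 ± 4.84 FPKM in control aortas (SD, n = 5, 4 and 5). Between uremic and control aortas its log2 difference was 0.11, with a 95% interval of -0.21 to 0.43. Plod2 made up 83.5 ± 1.19% of the summed lysyl hydroxylase FPKM in uremic aortas, 80.2 ± 2.47% with vitamin D alone and 77.8 ± 2.28% in control aortas (SD, n = 5, 4 and 5).

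Neither prolyl 4-hydroxylase subunit passed the test against control, and both had negative differences. P4ha1 had 57.2, 46.5, 83.6, 46.7 and 78.2 FPKM in uremic aortas, 105, 74.6, 109 and 114 FPKM in control aortas with vitamin D, and 77.6, 82.5, 110, 89.3 and 72.5 FPKM in control aortas. Rats 9, 17 and 27 were below every control rat, while rats 20 and 28 lay among them. The log2 difference was -0.49 (SE 0.18, limma adjusted p = 0.0693), and the gene passed without rat 20 (adjusted p = 0.0329) or without rat 28 (adjusted p = 0.0490). P4ha1 lies on chromosome 20 of rn5 from 30726603 to 30776294. P4ha2 averaged 24.7 ± 3.74 FPKM in uremic aortas, 25.3 ± 5.12 FPKM in control aortas with vitamin D and 32.2 ± 5.96 FPKM in control aortas (SD, n = 5, 4 and 5). Its log2 difference between uremic and control aortas was -0.37 (SE 0.14, limma adjusted p = 0.0883). With library totals made equal, both passed as lower, P4ha1 at -0.60 and P4ha2 at -0.48 (limma adjusted p = 0.0232 and 0.0158). This setting moved the median of all genes to -0.10, and neither subunit passed when Mgp was also left out.

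P4ha3, the remaining alpha subunit, was not among the 10. It rose to 4.16 ± 1.59 FPKM in uremic aortas, against 0.565 ± 0.348 FPKM in control aortas (SD, n = 5 each), a log2 difference of 1.69 (SE 0.23, limma adjusted p = 2.28e-04). The means differed 7.36-fold, and the log2 difference of this low gene was 2.75 with a pseudocount of 0.1 and 2.98 with 0.01. P4ha3 had 2.62 to 6.61 FPKM in uremic and 0.266 to 1.08 FPKM in control aortas. It thus passed the filter on low values in this comparison through the uremic libraries, where it is high. With vitamin D alone it averaged 1.36 ± 0.539 FPKM (SD, n = 4) and did not pass against control (log2 difference 0.59, SE 0.23, limma adjusted p = 0.214). The shared partner P4hb averaged 325 ± 69.0 FPKM in uremic aortas and 253 ± 16.7 FPKM in control aortas and did not pass (log2 difference 0.34, SE 0.15, limma adjusted p = 0.122). The summed level of P4ha1 and P4ha2 was 87.1 ± 20.4 FPKM in uremic aortas, 126 ± 21.8 FPKM with vitamin D alone and 119 ± 14.3 FPKM in control aortas (SD, n = 5, 4 and 5).

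In the authors' deposited table a q value under 0.05 was given to 4 of the 10 enzymes for uremic against control rats. These were Loxl3 and Loxl4, each at 0.000653 in the authors' deposited table, Plod2 at 0.00267 and P4ha1 at 0.0373. P4ha1 is thus the 1 enzyme on which that table and limma differed in this comparison.

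**Figure D3:**
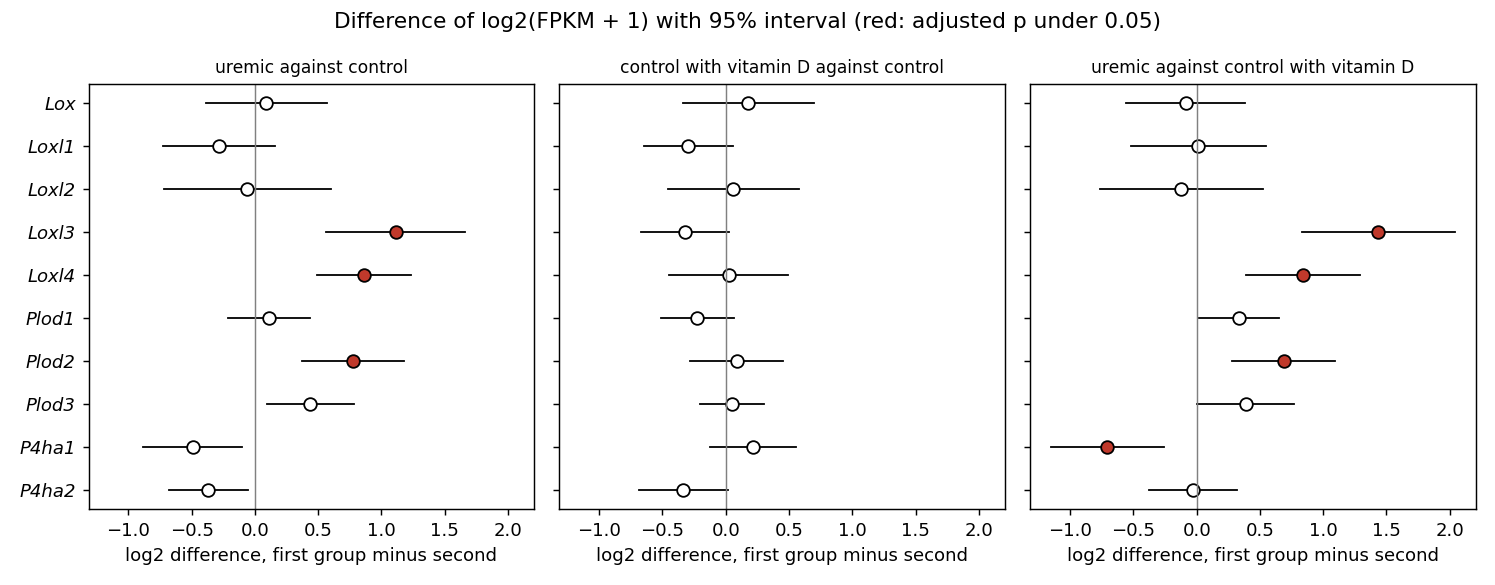
Difference of mean log2(FPKM + 1) for each enzyme in the 3 comparisons, with 95% intervals from limma, filled red where the adjusted p was under 0.05. Loxl3, Loxl4 and Plod2 are red in both comparisons with uremic rats, P4ha1 is red at -0.71 against control rats with vitamin D, and no enzyme is red in the middle panel.

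The extra control group addressed what vitamin D alone does in normal rats. In control rats with vitamin D against control rats none of the 10 enzymes was called by limma, none had an unadjusted p under 0.05, and none had groups that did not overlap. Of the 9 enzymes with recovered reads voom called none either. Over all 9693 genes tested 0.134% were called, 0.0103% as higher and 0.124% as lower, and 5.72% had groups without overlap, 2.37% higher and 3.34% lower. An unadjusted limma p under 0.05 was found for 1782 of these genes. Log2 differences of the enzymes ran from -0.33 for P4ha2 (SE 0.16, 95% interval -0.69 to 0.02, limma adjusted p = 0.296) to 0.21 for P4ha1 (SE 0.16, interval -0.13 to 0.55, limma adjusted p = 0.490). For Plod2 the interval was -0.28 to 0.45 and for Loxl4 -0.45 to 0.49. For Loxl3 it was -0.67 to 0.03 around a difference of -0.32. This comparison and that of uremic with control rats share the 5 control libraries.

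In uremic rats against control rats with vitamin D, where both groups had received vitamin D, Loxl3, Loxl4 and Plod2 rose and P4ha1 fell. Over all 9916 genes tested 13.2% were called, 7.19% as higher and 6.03% as lower. Of all called genes 54.4% were higher, against 33.6% with library totals made equal and 65.4% when Mgp was also left out. Loxl3 was 3.07-fold higher (log2 difference 1.44, SE 0.28, limma adjusted p = 0.00746), Loxl4 2.08-fold (0.84, SE 0.20, adjusted p = 0.0213) and Plod2 1.63-fold (0.69, SE 0.19, adjusted p = 0.0326). P4ha1 averaged 62.4 ± 17.5 FPKM in uremic aortas (SD, n = 5) and 101 ± 17.8 FPKM in control aortas with vitamin D (SD, n = 4), with a log2 difference of -0.71 (SE 0.20, limma adjusted p = 0.0428). All 8 macrophage markers and 4 of 5 osteoblast and chondrocyte markers rose here too, as did 1 of 7 endothelial markers (Pecam1) and 1 of 4 red blood cell markers (Hba2). All 4 red blood cell markers had an unadjusted limma p under 0.05, with a median log2 difference of 2.03, and voom on recovered reads called 2. The part of blood in the results was not tested. Of 8 smooth muscle markers 1 fell, of 5 fibroblast markers 1 (Pi16) and of 4 tested brown fat markers 3. Summed brown fat marker levels were 111 to 527 FPKM in uremic aortas and 370 to 1470 FPKM in control aortas with vitamin D, with Elovl3 at 0 in every library, and their part in the results was not tested. No white fat marker passed, but their median log2 difference was -1.22, with 4 of 6 at an unadjusted p under 0.05. The part of white fat was not tested either. The uremic libraries are the same as before, so the calls of Loxl3, Loxl4 and Plod2 here are not separate evidence. As before, 2 enzymes, Loxl3 and Loxl4, had groups without overlap, against 7.06% of all genes in that direction and 5.69% in the other.

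In this smaller comparison Loxl3 passed without each of the 9 rats in turn, and the other calls were lost when some rats were left out, while the differences kept their sign. Over the 9 omissions the log2 difference ran from 0.66 to 0.95 for Loxl4, from 0.60 to 0.83 for Plod2 and from -0.84 to -0.61 for P4ha1, and the number of genes called over the whole table ran from 659 to 1662, against 1311 with all rats. Loxl4 no longer passed without rat 9 (limma adjusted p = 0.0516), rat 28 (0.0519) or rat 36 (0.0600). Plod2 no longer passed without rat 9 (0.0742), 17 (0.0535), 20 (0.0729), 28 (0.0770), 36 (0.0857), 38 (0.103) or 39 (0.0553). P4ha1 no longer passed without rat 9 (0.0869), 17 (0.0883), 27 (0.0613), 36 (0.112), 38 (0.115) or 39 (0.0916), nor with no filter on low values (0.0620), with array weights (0.0607) or with totals made equal after Mgp was left out (0.0556). Without rat 27, Plod1 (log2 difference 0.44, limma adjusted p = 0.0223) and Plod3 (0.53, adjusted p = 0.0161) passed as higher. In uremic against control rats, by contrast, Loxl3, Loxl4 and Plod2 passed without each of the 10 rats in turn, with adjusted p up to 0.0232, 0.0105 and 0.0295.

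The substrates of these enzymes were read in the same libraries. Col1a1 and Col3a1, the chains of the main fibrillar collagens of the aortic wall, and elastin (Eln) all fell in uremic against control aortas. Col1a1 averaged 692 ± 434 FPKM in uremic aortas, 648 ± 165 FPKM in control aortas with vitamin D and 1516 ± 277 FPKM in control aortas (SD, n = 5, 4 and 5). Its log2 difference was -1.35 in uremic against control rats (SE 0.37, limma adjusted p = 0.0195) and -1.24 in control rats with vitamin D against control rats (SE 0.20, limma adjusted p = 0.0479). Col3a1 differed by -1.01 in uremic against control rats (SE 0.25, limma adjusted p = 0.0120) and by -0.92 in control rats with vitamin D against control rats (SE 0.15, limma adjusted p = 0.0489). Both comparisons share the control libraries. Eln averaged 2704 ± 1783 FPKM in uremic aortas and 7389 ± 1409 FPKM in control aortas (SD, n = 5 each; log2 difference -1.71, SE 0.41, limma adjusted p = 0.00964). Both collagen calls with vitamin D alone were lost without any one of rats 36, 37, 38, 41, 42, 43 and 44, at limma adjusted p between 0.0502 and 0.163 for Col1a1 and Col3a1, and stayed without rat 39 or rat 46. They were also lost with no filter on low values or with 1 fit for all groups, at limma adjusted p between 0.0975 and 0.123 for Col1a1 and Col3a1. Col5a2, a chain that limits fibril width, went the other way and rose in uremic against control rats (log2 difference 1.05, SE 0.16, limma adjusted p = 5.79e-04). It rose also in uremic rats against control rats with vitamin D (1.25, limma adjusted p = 0.00322). Col1a1, Col3a1 and Eln did not pass there (limma adjusted p = 0.896, 0.872 and 0.184).

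Ratios of an enzyme to a substrate or partner within a library, on log2(FPKM + 1), were compared for 8 pairs in 3 comparisons, 24 exact 2-sided permutation tests in all, of which 12 had an adjusted p under 0.05. Leaving out control rat 41, 42, 44 or 46 left 0 of the 24 under that threshold, and leaving out rat 36, 38 or 39 left 5. Fewer relabellings remain when a rat is left out, so a lost call cannot by itself show that a result rested on that rat. The smallest p the full group sizes allow is 0.00794. In uremic against control aortas the ratio of Lox to Col1a1 averaged -4.02 ± 0.92 in uremic and -5.46 ± 0.51 in control libraries (SD, n = 5 each), a difference of 1.44 with no overlap (exact p = 0.00794, adjusted p = 0.0238). Lox to Eln differed by 1.80, Loxl1 to Eln by 1.43 and Plod2 to Col1a1 by 2.12, all without overlap and with the same exact p and adjusted p. With each of the 10 rats left out in turn, the difference ran from 1.08 to 1.66 for Lox to Col1a1 and from 1.83 to 2.40 for Plod2 to Col1a1. Lox and Loxl1 themselves had not changed past the threshold, whereas Col1a1 and Eln had fallen. In control rats with vitamin D against control rats the ratios to Col1a1 were also higher, by 1.42 for Lox, 1.33 for Plod2 and 1.45 for P4ha1 (exact p = 0.00794 and adjusted p = 0.0238 for each), and Lox to Eln by 0.87 (exact p = 0.0238, adjusted p = 0.0476).

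The ratio of Plod2 to Plod1 sets the telopeptide enzyme against the helix enzyme and involves no substrate. It averaged 3.11 ± 0.09 in uremic libraries (SD, n = 5), 2.75 ± 0.28 in libraries with vitamin D alone (SD, n = 4) and 2.44 ± 0.18 in control libraries (SD, n = 5). Uremic libraries were above all control libraries, with a difference of 0.66 (exact p = 0.00794, adjusted p = 0.0238), and differed by 0.35 from those with vitamin D, overlapping in range (exact p = 0.0159, adjusted p = 0.0346). P4ha2 to P4ha1 was higher in uremic libraries than in libraries with vitamin D by 0.67, without overlap (exact p = 0.0159, adjusted p = 0.0346), as was Loxl1 to Eln by 1.03 (exact p = 0.0159, adjusted p = 0.0346). Neither of these passed when any one of the 9 rats was left out, at permutation adjusted p of 0.0527 to 0.0779. The differences then ran from 0.60 to 0.75 for P4ha2 to P4ha1 and from 0.83 to 1.19 for Loxl1 to Eln. Between the same groups Lox to Col1a1 differed by 0.02 (exact p = 0.968) and Plod2 to Col1a1 by 0.80 (exact p = 0.135), and neither passed. P4ha2 to P4ha1 differed by 0.13 between uremic and control libraries (exact p = 0.563). The ratio of Loxl2 to Col4a1, its basement membrane substrate, passed in none of the 3 comparisons, with an exact p of at least 0.222.

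**Figure D4:**
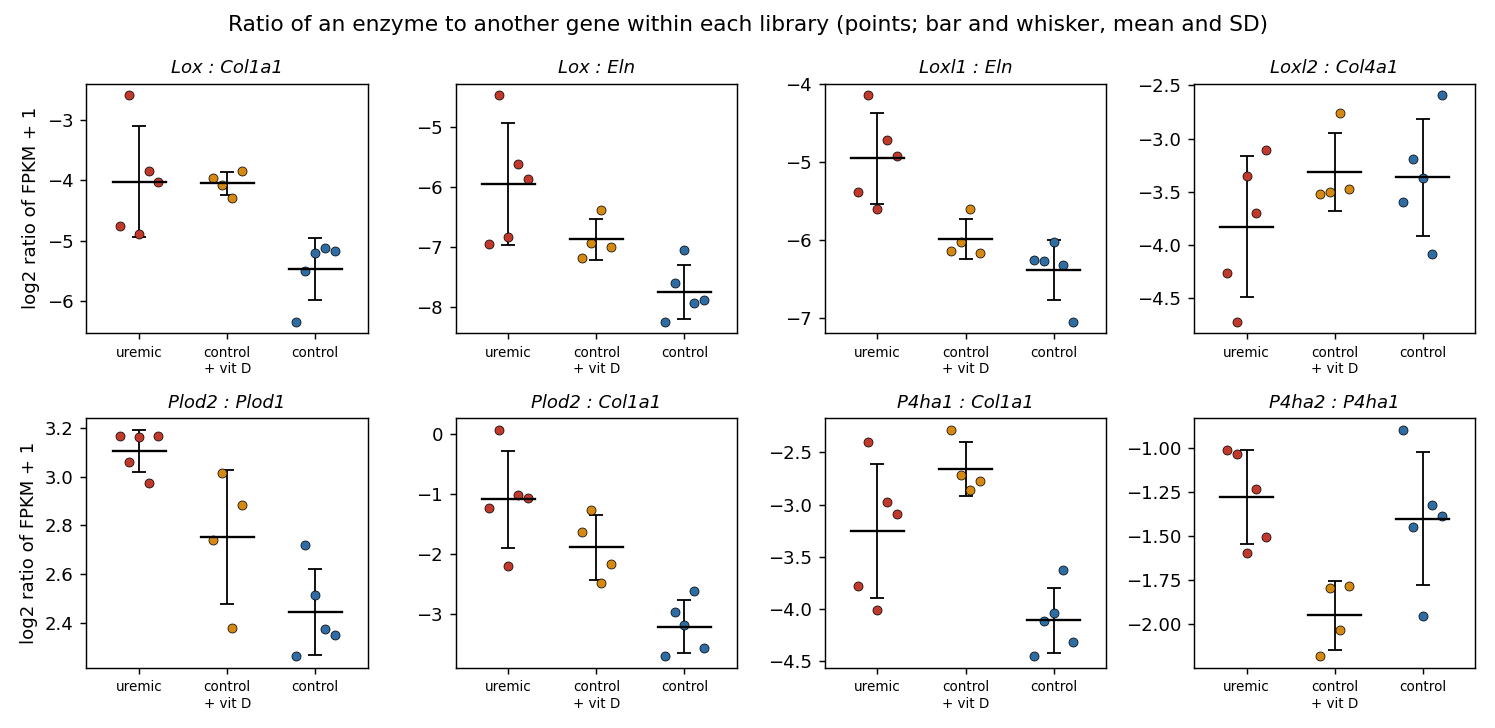
Log2 ratio of an enzyme to a second gene within each library for 8 pairs, with uremic rats (n = 5), control rats with vitamin D (n = 4) and control rats (n = 5). Points are rats, bar and whisker are mean and SD, and each panel has its own axis, which does not start at 0. The ratios to Col1a1 lie higher in both groups with vitamin D than in control rats for Lox and Plod2, and Plod2 to Plod1 is 2.98 to 3.17 in uremic rats and 2.26 to 2.72 in control rats.

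Set per 1000 FPKM of Col1a1 and Col3a1 together, the lysyl hydroxylases summed to 261 ± 103 FPKM in uremic aortas, 152 ± 42.4 FPKM with vitamin D alone and 70.5 ± 19.5 FPKM in control aortas (SD, n = 5, 4 and 5). The lysyl oxidases came to 115 ± 31.0 FPKM in uremic aortas, 91.1 ± 9.81 FPKM with vitamin D alone and 49.0 ± 9.98 FPKM in control aortas. P4ha1 with P4ha2 came to 65.5 ± 19.7 FPKM in uremic aortas, 86.9 ± 11.9 FPKM with vitamin D alone and 39.6 ± 8.01 FPKM in control aortas. For the oxidases and the lysyl hydroxylases the lowest value in either group with vitamin D was above the highest control value. These sums were not tested, and Col1a2, the second chain of collagen I, was left out because it is listed at 0 in every library.

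Other genes of the pathway were read from lists. Of 8 tested genes for hydroxylation and glycosylation of collagen, P4ha3 rose in uremic against control aortas and none fell. Of 11 tested genes for collagen folding and secretion none was called by limma, or by voom on recovered reads, in any of the 3 comparisons. At an unadjusted p under 0.05 the counts were 0 in uremic against control, 3 in control with vitamin D against control and 1 in uremic against control with vitamin D. Serpinh1, the collagen chaperone HSP47, averaged 341 ± 134 FPKM in uremic aortas and 453 ± 51.2 FPKM in control aortas (SD, n = 5 each; limma adjusted p = 0.157). Of 5 tested genes that process procollagen and the lysyl oxidase proenzyme, Bmp1 fell in uremic against control aortas and none was called as higher. Pcolce, of the same list, differed there by 0.58 (SE 0.26, limma adjusted p = 0.131). In uremic rats against control rats with vitamin D it was called as higher (0.94, SE 0.27, limma adjusted p = 0.0406), and Bmp1 was not called (0.16, limma adjusted p = 0.619). That call of Pcolce held in 4 of the 9 fits with 1 rat left out. Bmp1, the protease that removes the propeptides of fibrillar procollagens and of pro-Lox, averaged 32.6 ± 7.51 FPKM in uremic aortas, 28.5 ± 4.11 FPKM in control aortas with vitamin D and 54.1 ± 8.05 FPKM in control aortas (SD, n = 5, 4 and 5). Its log2 difference was -0.74 in uremic against control rats (SE 0.17, limma adjusted p = 0.00845) and -0.90 in control rats with vitamin D against control rats (SE 0.14, limma adjusted p = 0.0469). That second call was lost without any one of rats 36, 37, 38, 41, 42, 43 and 44, at limma adjusted p of Bmp1 between 0.0697 and 0.145. It was lost too with no filter (0.0812), with 1 fit for all groups (0.0531) and with totals made equal after Mgp was left out (0.0549).

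Among the substrates, 1 of 7 tested fibrillar collagen genes rose (Col5a2) and 2 fell, and 1 of 3 basement membrane collagen genes rose, Col4a4 (log2 difference 1.06, SE 0.29, limma adjusted p = 0.0200). Col4a4 is a low gene, at 1.99 to 3.72 FPKM in uremic aortas and 0 to 2.50 FPKM in control aortas. Its log2 difference was 2.80 with a pseudocount of 0.01, where it no longer passed (limma adjusted p = 0.108), and it missed the threshold without rat 28 (limma adjusted p = 0.0516). Of 9 tested elastic fibre genes 4 fell and none rose: besides Eln these were Ltbp4 (-1.61), Mfap2 (-1.69) and Fbln1 (-1.68), at limma adjusted p between 9.00e-06 and 9.13e-04 for these last 3. Of 10 tested genes that bind fibrils or regulate their cross-linking, 4 rose and 2 fell. Periostin (Postn), which in mice assists the activation of Lox by Bmp1, rose to 810 ± 192 FPKM in uremic aortas, against 87.4 ± 28.6 FPKM in control aortas (SD, n = 5 each; log2 difference 3.23, SE 0.23, limma adjusted p = 1.84e-06). Fibronectin (Fn1), a matrix protein that binds both Bmp1 and Lox, rose to 3778 ± 881 FPKM in uremic aortas, against 192 ± 24.1 FPKM in control aortas (SD, n = 5 each; log2 difference 4.27, SE 0.17, limma adjusted p = 1.38e-08). Thrombospondin-1 (Thbs1) rose too, with a log2 difference of 4.56 (SE 0.29, limma adjusted p = 8.18e-07). Transglutaminase 2 (Tgm2), which makes another kind of protein cross-link, fell by 0.83 on the log2 scale (SE 0.12, limma adjusted p = 4.96e-04). In control rats with vitamin D against control rats the same genes differed in the same direction and were not called. The log2 differences there were 1.23 for Fn1, 1.00 for Postn, 1.20 for Thbs1 and -0.55 for Tgm2 (limma adjusted p = 0.0847, 0.186, 0.287 and 0.150). Fn1 averaged 500 ± 294 FPKM with vitamin D alone (SD, n = 4), and Fn1 and Tgm2 had groups without overlap. Fmod (0.46) and Ddr2 (-0.55), the other 2 called genes of that list, were picked out after their values were seen. Ltbp4, Mfap2, Postn, Fn1, Thbs1 and Fmod passed in the same direction in uremic rats against control rats with vitamin D. Col4a4, Fbln1, Tgm2 and Ddr2 did not pass there (limma adjusted p = 0.382, 0.0847, 0.432 and 0.285).

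Of 8 tested genes for the supply of copper, iron and ascorbate, 2 rose and none fell, both copper transporters. Slc31a1 had a mean of 13.7 ± 1.78 FPKM in uremic aortas and 8.81 ± 1.31 FPKM in control aortas (SD, n = 5 each; log2 difference 0.59, SE 0.13, limma adjusted p = 0.00659), and Slc31a2 a mean of 17.5 ± 4.26 FPKM in uremic aortas and 12.1 ± 0.962 FPKM in control aortas (SD, n = 5 each; log2 difference 0.47, SE 0.15, limma adjusted p = 0.0420). Slc31a1 passed without each rat in turn, whereas Slc31a2 no longer passed without rat 9, 17, 28, 42, 43, 44 or 46, with no filter, with equal totals or with 1 fit for all groups, at limma adjusted p of 0.0553 to 0.109. Neither passed in uremic rats against control rats with vitamin D (limma adjusted p = 0.308 for Slc31a1 and 0.440 for Slc31a2). A list of 15 tested genes held the hypoxia-inducible factor subunits Hif1a and Epas1 and targets of these factors. In uremic against control aortas limma called none of the 15 as higher and 3 targets fell, namely Adm (-1.67, SE 0.30, limma adjusted p = 0.00162), Egln3 (-0.72, SE 0.23, limma adjusted p = 0.0422) and Pgk1 (-0.45, SE 0.14, limma adjusted p = 0.0328). Voom on recovered reads called 4 of the list. Kdm3a had a positive difference of 0.38 (limma adjusted p = 0.0751). Over the main and alternative settings its adjusted p, by limma, voom or permutation, ran from 0.0298 to 0.190. Adm passed without each of the 10 rats in turn. Egln3 no longer passed without rat 9, 20, 27, 41, 42 or 43, with no filter on low values, or with totals made equal after Mgp was left out, at limma adjusted p of 0.0623 to 0.103. Pgk1 no longer passed without rat 17, 27, 28, 41, 43, 44 or 46, with Mgp left out, or with 1 fit for all groups, at limma adjusted p of 0.0513 to 0.0714. Pgk1 fell also in uremic rats against control rats with vitamin D (-0.86, limma adjusted p = 0.0146). Adm and Egln3 did not pass there (limma adjusted p = 0.0974 and 0.186). In control rats with vitamin D against control rats none of the 15 was called, although 7 had an unadjusted limma p under 0.05. Between those groups Pgk1 differed by 0.41 (SE 0.18, limma adjusted p = 0.259) and Adm by -0.84 (SE 0.28, limma adjusted p = 0.162).

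**Figure D5:**
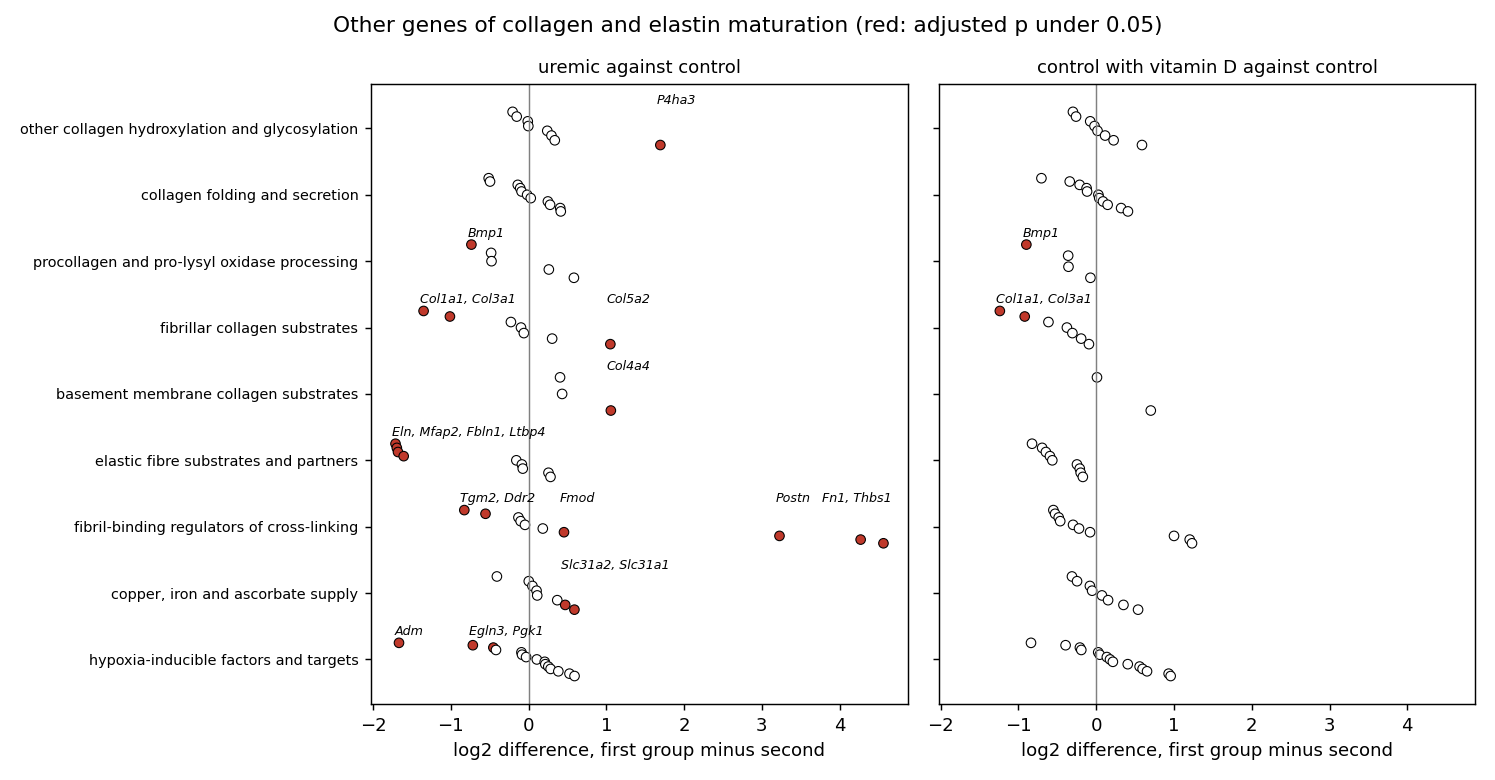
Log2 difference of the other pathway genes by list, uremic against control on the left and control with vitamin D against control on the right; red points passed at a limma adjusted p under 0.05 and are named. Bmp1, Col1a1 and Col3a1 are red and negative in both panels, whereas P4ha3, Postn, Fn1 and Thbs1 are red in the left panel.

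Genes with a pattern most like that of Lox and of Loxl3 over the 14 libraries were found by the root mean square difference of centred log2(FPKM + 1) among 10108 genes. For Lox the nearest were Lrp5 (0.21), Kctd21, Thsd7a, Eogt and Nmt2, and the nearest of the other 9 enzymes was Plod3 at place 1282. For Loxl3 the nearest included Sphk1 (0.20), Cilp2, Col5a2 (0.29) and Cenpm, while Plod2 stood at place 93 and Loxl4 at place 221. Cilp2 and Cenpm are low genes, with means of 1.72 and 1.67 FPKM in uremic aortas. Their means were 0.129 and 0.108 FPKM with vitamin D alone and 0.252 and 0.0822 FPKM in control aortas. The filter on low values thus favoured such genes where they are high in uremic aortas, and their likeness to Loxl3 was not tested. The median over all genes was 0.48 for Lox and 0.77 for Loxl3. Col5a2, near the top for Loxl3, had 126 ± 27.6 FPKM in uremic aortas, 51.9 ± 9.84 FPKM in control aortas with vitamin D and 59.0 ± 5.41 FPKM in control aortas (SD, n = 5, 4 and 5).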

How the data were processed

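Polyadenylated RNA of rat aorta was sequenced, 1 library per rat, in 14 rats. Trimming with cutadapt 1.3, alignment with TopHat2 2.0.10 to rn5, and Cufflinks 2.1.1 with Cuffdiff are named in the submitters' processing notes; settings are not given in the sources used here. The deposited table gives 1 value per gene and library, which were read as FPKM because the authors' tools give that unit, although the header names none. Its q values (p-values adjusted over genes) are the authors' and were used only for comparison. FPKM corrects for transcript length and library size. Median-ratio scaling factors of the deposited values were 1.00 to 1.01 in all libraries, while factors from library totals ran from 0.921 to 1.17. The deposited values were thus already close to a median-ratio scale. With totals made equal instead, a very abundant transcript such as Mgp lowers all other values.

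Recovered reads came from the FPKM steps: the values of 10928 genes, 96.8% of the 11294 expressed in 8 or more libraries, were whole multiples of 1 step within 0.1 read, against 1 of 1000 shuffled genes (0.1%). This held for 9 of the 10 enzymes, not for Plod2. The abundant genes Col1a1, Col3a1, Eln and Fn1 also lacked the test on recovered reads. The median gene had 55 reads per library; no counting interval is given, because errors are the SD or SE between rats.

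Only the libraries of the 2 groups compared entered a fit. A gene was tested if 4 or more of these libraries had 1 FPKM or more, on log2(FPKM + 1) with limma 3.58.1 in R 4.3.3 (lmFit, eBayes with trend), 2-sided. Calls were made at an adjusted p under 0.05 (Benjamini-Hochberg, all tested genes). Differences and SE are on that scale, which understates changes of low genes such as Loxl4; folds are ratios of mean FPKM. The limma step was tested on simulated data. There the share of false calls exceeded the threshold in uremic against control, but not in the other comparisons. Ratios were tested by exact permutation of the libraries, adjusted over all 24 tests, with Python 3.11.15 and scipy 1.17.1. The labels give separate rats, no batch and no rat numbers shared between groups.

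The 10 enzymes and all gene lists were chosen with earlier results of these data known. Besides the 10, the text names Col1a1, Col3a1, Eln, P4hb, Bmp1 and Serpinh1, up to 4 genes per list with the smallest p in uremic against control, and the 5 genes nearest to Lox and to the enzyme with the largest difference, 1 of which is not reported here. Alternatives were other pseudocounts, filters and scalings, 1 fit for all groups, array weights, voom on recovered reads, exact permutation and leaving out each rat. Rows whose symbol a spreadsheet had made into a date (25) are not named.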

Additional observations from a re-analysis of the deposited data

Results flagged for a closer look

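A rat far from the rest of its group was looked for with Dixon's test in 135 groups of values, the 3 groups of each of 45 named genes, and was found in 11, where chance gives about 6.75. None of the 30 groups of the 10 enzymes was among them. In the uremic group, rat 20 had an Adamts2 level of 38.2 FPKM, against 18.1 to 23.0 FPKM in the other rats. Rat 27 had 78.4 FPKM of Col5a2, against 127 to 147 FPKM, and rat 17 had 17.7 FPKM of Kdm3a, against 12.3 to 13.8 FPKM. In control rats with vitamin D, rat 37 stood apart in 4 genes. It had 936 FPKM of Fn1, against 298 to 384 FPKM, 23.6 FPKM of Thbs1, against 1.20 to 2.66 FPKM, 418 FPKM of Postn, against 93.8 to 148 FPKM, and 10.0 FPKM of Ftl, against 8.22 to 8.39 FPKM. Rat 38 of that group had 20.9 FPKM of Glt25d1 (Colgalt1), against 23.7 to 24.0 FPKM. In the control group, rat 44 had 1223 FPKM of Col3a1, against 1557 to 1691 FPKM, rat 43 had 2.43 FPKM of Thbs1, against 0.728 to 1.22 FPKM, and rat 41 had 208 FPKM of Tgm2, against 188 to 192 FPKM.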

How the results depend on the processing

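No paired analysis was possible because the rat numbers are not shared between groups. In uremic against control, Loxl3, Loxl4 and Plod2 stayed called wherever they were tested, except under exact permutation. There 0 enzymes and 0 genes passed in any comparison. The smallest exact p was 0.00794, and Loxl3 and Loxl4 had a permutation adjusted p of 0.0506 in uremic against control. A filter at 5 FPKM removed Loxl4. Plod3 passed as a 4th enzyme with 1 fit for all groups, array weights, recovered reads, or equal totals with Mgp left out, and equal totals called 2 enzymes lower. Equal totals moved the median of all genes to -0.10 in uremic against control and -0.12 in uremic against control with vitamin D. Calls were then 34.5% and 33.6% higher, where the main fits gave 52.0% and 54.4%; with Mgp left out these were 67.1% and 65.4%, at medians of 0.09 and 0.06.

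For uremic against control with vitamin D, 0 enzymes were lower with no filter, with array weights or with equal totals and Mgp left out, and array weights called 5 higher and 1999 genes in all. For control with vitamin D against control, 3 genes passed with no filter and 429 with array weights, none of them one of the 10. Signs turned for small differences only. These were, with equal totals, Lox at -0.0185 and Plod1 at -6.44e-04 in uremic against control, Lepre1 at 0.00435 in control with vitamin D against control, and Loxl1 at -0.13, Glt25d1 at -0.0114, Hspa5 at -0.14 and Tmem38b at -0.0439 in uremic against control with vitamin D. With Mgp left out they were Loxl2 at 0.0305 in uremic against control, Lepre1 at 0.0102 in control with vitamin D against control and P4ha2 at 0.0304 in uremic against control with vitamin D. With array weights they were Loxl2 at 0.19 in uremic against control, Loxl4 at -0.10 and P4hb at -0.00681 in control with vitamin D against control, and, in uremic against control with vitamin D, Lox at 0.0543, Loxl2 at 0.0926, P4ha2 at 0.0769, Col1a1 at 0.17, Col3a1 at 0.0955 and Tmem38b at -0.0880. The causes were not tested.

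Leaving out 1 rat gave 3 to 4 enzymes higher, 0 to 1 lower and 1684 to 2224 genes in uremic against control; 1 to 5 higher, 0 to 1 lower and 659 to 1662 genes in uremic against control with vitamin D; and 0 to 393 genes in control with vitamin D against control, 393 without rat 39 and 385 without rat 46. Significant ratios numbered 0 to 14, with 0 without rat 41, 42, 44 or 46, and each omission left fewer relabellings for the exact test. Ranges that crossed 0 were, in uremic against control, Lox -0.0753 to 0.23 and Loxl2 -0.27 to 0.13. In control with vitamin D against control they were Loxl2 -0.0931 to 0.25, Loxl4 -0.0863 to 0.21, Plod2 -0.0116 to 0.17, Lepre1 -0.16 to 0.0519, Col4a1 -0.0265 to 0.0590, P4hb -0.0652 to 0.0850, Serpinh1 -0.00552 to 0.11, Adamts14 -0.17 to 0.0264 and the ratio Loxl2 to Col4a1 -0.13 to 0.25. In uremic against control with vitamin D they were Lox -0.21 to 0.0833, Loxl1 -0.14 to 0.16, Loxl2 -0.33 to 0.0685, P4ha2 -0.12 to 0.0888, Col1a1 -0.41 to 0.20, Col3a1 -0.31 to 0.0653, Hspa5 -0.14 to 0.14, Tmem38b -0.0544 to 0.20 and Lox to Col1a1 -0.33 to 0.24, and P4ha2 to P4ha1 in uremic against control ran from -0.0120 to 0.25.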
